A study of Mus musculus with 6 samples.

Results

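The genes described here are 10 components of the transforming growth factor beta (TGF-beta) pathway: the ligands Tgfb1, Tgfb2 and Tgfb3, the receptors Tgfbr1, Tgfbr2 and Tgfbr3, the intracellular proteins Smad3 and Smad7, and the latency proteins Ltbp1 and Ltbp2. They were taken by symbol from a table of 35122 mouse genes, and all 10 had enough counts to be among the 13925 genes tested. RNA was sequenced from the adipocyte fraction of the epididymal fat pad, the layer that floated after collagenase digestion. The paper states that other cells, such as macrophages, might contaminate this fraction. All mice were chow-fed C57BL/6 males labelled as 10 to 11 months old, and all carried both copies of Spi1, the gene of the transcription factor PU.1, with exon 5 flanked by loxP sites. The 3 control mice (PU.1 fl/fl) had no Cre, and the 3 aPU.1KO mice (AdipoqCre PU.1 fl/fl) expressed Cre from the adiponectin promoter, which acts in adipocytes and leaves other cells of the fat pad with their Spi1. Each library has its own number in the labels and was taken as 1 mouse.

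TGF-beta is made as a precursor whose propeptide stays wrapped around the mature ligand and keeps it inactive. Latent TGF-beta binding proteins fix this complex to fibrils of the extracellular matrix, from which integrins and proteases release the ligand. The ligand then binds the type II receptor, which phosphorylates the type I receptor, which in turn phosphorylates SMAD2 and SMAD3, while SMAD7 is induced by the signal and shuts it down. In fat, TGF-beta is known as an inhibitor of adipocyte differentiation and a driver of fibrosis.

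The libraries summed to between 20550252 and 69283842 counts, the deepest being control mouse 1 and all others lying at or under 24310144. Spi1 was counted at 24.3, 6.35 and 26.7 CPM (each library's counts scaled to a common total after TMM correction) in control mice 1, 2 and 3 and at 3.20, 1.22 and 4.17 CPM in aPU.1KO mice 1, 2 and 3. Its groups did not overlap, with a log2 fold change (aPU.1KO over control) of -2.75 (SE 0.64, edgeR adjusted p = 0.0788), and the counts cover the whole gene and not only the floxed exon. The 8 adipocyte markers, among them adiponectin, perilipin 1 and leptin, summed to 24609 to 27120 CPM in control and 29362 to 32108 CPM in aPU.1KO libraries. Control mouse 2 stood apart from the other control mice in the 10 macrophage markers, whose sum was 408 CPM there against 1465 and 1423 CPM in control mice 1 and 3.

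Lower in the adipocyte fraction of aPU.1KO mice were Ltbp1, Tgfb1 and Tgfbr2, none at an adjusted p under 0.05 in edgeR. Ltbp1 is a binding protein that anchors latent TGF-beta to matrix, Tgfb1 the main ligand of the family and Tgfbr2 the receptor that binds it. The fraction can hold other cells, and their part in these values was not tested. In each of these 3 genes all 3 aPU.1KO mice lay below all 3 control mice, and the control means were 1.95, 1.53 and 1.30 times the aPU.1KO means. None of the 10 genes passed an adjusted p under 0.05 in edgeR's quasi-likelihood test, which called 0.237% of all genes tested. Of the 10, 3 were lower and 0 were higher by unadjusted p under 0.05, beside 13.7% of all genes lower and 11.9% higher. Groups without overlap were found for 3 of the 10 in the lower and 0 in the higher direction, beside 15.5% and 16.7% of all genes. The median log2 fold change was -0.18 over the 10 genes and 0.01 over all genes tested. DESeq2 called 2 of the 10 lower, Tgfb1 and Ltbp1, and 0 higher, beside 7.48% lower and 3.51% higher of all genes it tested, and limma-voom called 0. With control mouse 2 left out, edgeR called 2 of the 10, Tgfb1 lower and Smad7 higher, beside 8.34% of all genes called in either direction.

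**Figure D1:**
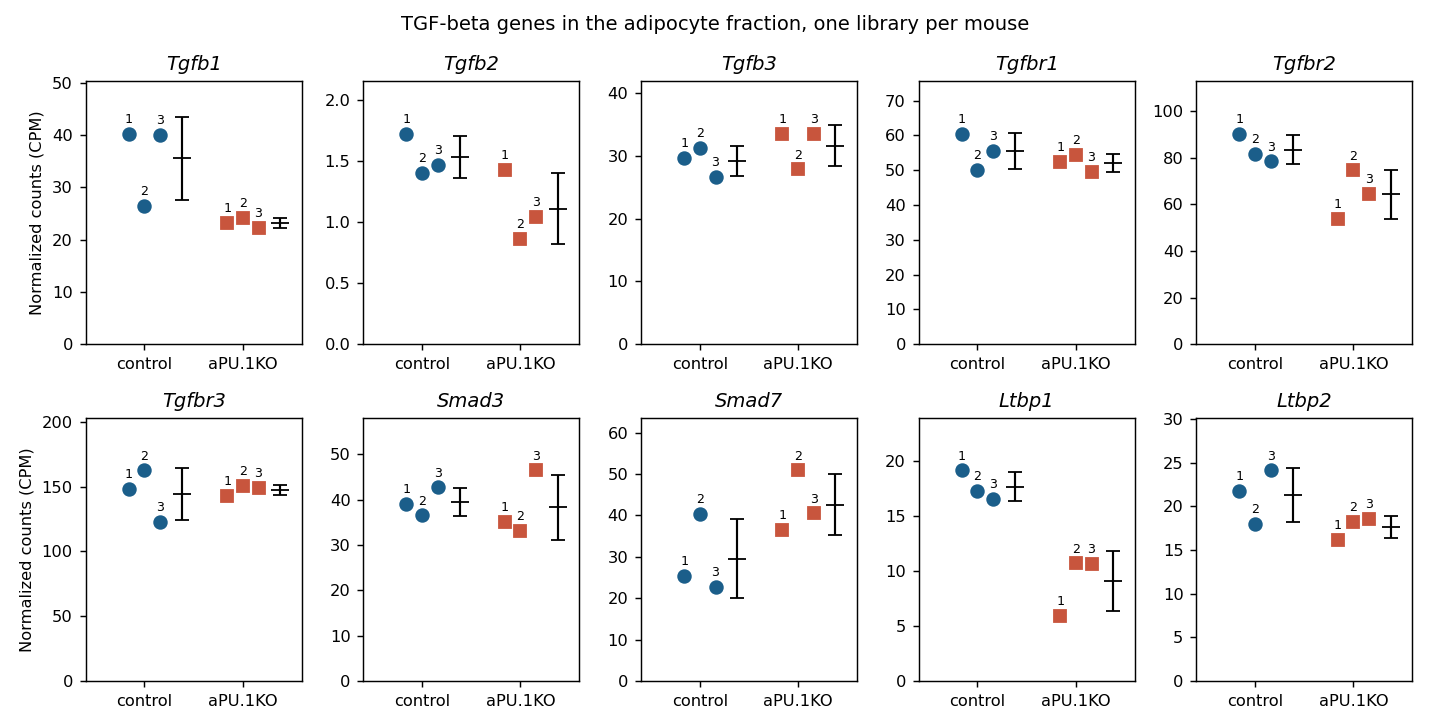
TMM-scaled counts (CPM, y axis from 0, its own scale for each gene) of the 10 TGF-beta genes in 3 control (blue circles) and 3 aPU.1KO (red squares) mice. Small numbers are mouse numbers, and black bars beside the points give the mean ± SD. For Tgfb1, Tgfbr2 and Ltbp1 every aPU.1KO point lies below every control point, and control mouse 2 lies at 26.4 CPM of Tgfb1, near the aPU.1KO points.

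Tgfb1 (ENSMUSG00000002603; chromosome 7, 25687002 to 25705077, plus strand, GRCm38), the ligand best known in inflammation and fibrosis, was counted at 40.3, 26.4 and 40.1 CPM in the control mice and at 23.3, 24.2 and 22.3 CPM in the aPU.1KO mice. The aPU.1KO values were close together, and control mouse 2 lay just above them while the other control mice were far higher. Means were 35.6 ± 7.96 CPM (SD, n = 3) and 23.3 ± 0.96 CPM. The log2 fold change was -0.61 (SE 0.17, 95% interval -1.02 to -0.21), and edgeR's adjusted p was 0.0980. The adjusted p of DESeq2 was 0.0187, and that of edgeR without control mouse 2 was 0.00686, at a log2 fold change of -0.80. Over all alternatives the adjusted p of Tgfb1 ran from 0.00686 to 0.380, the highest without control mouse 1.

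For the other ligands the groups overlapped. Tgfb3 (ENSMUSG00000021253; chromosome 12, 86056745 to 86079041, minus strand), a ligand of mesenchymal tissues, was counted at 29.7, 31.2 and 26.6 CPM in control and 33.5, 27.8 and 33.5 CPM in aPU.1KO mice. The highest values were those of aPU.1KO mice 1 and 3, and the log2 fold change was 0.12 (95% interval -0.14 to 0.38, edgeR adjusted p = 0.539). Tgfb2 (ENSMUSG00000039239; chromosome 1, 186622792 to 186705989, minus strand) was the rarest of the 10 genes, with 19 to 125 counts per library. It was counted at 1.72, 1.40 and 1.47 CPM in control and 1.42, 0.859 and 1.04 CPM in aPU.1KO mice, and a single aPU.1KO mouse reached the control range. Its log2 fold change of -0.48 had a 95% interval of -1.15 to 0.20 (edgeR adjusted p = 0.336).

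Of the latency proteins, Ltbp1 (ENSMUSG00000001870; chromosome 17, 75005568 to 75392512, plus strand) had the lowest p of the 10 genes. It was counted at 19.1, 17.2 and 16.5 CPM in the control mice and at 5.90, 10.7 and 10.6 CPM in the aPU.1KO mice. The control mice, mouse 2 included, lay close together, the aPU.1KO mice all lay lower, and aPU.1KO mouse 1 was the lowest. The log2 fold change was -0.96 (SE 0.23, 95% interval -1.51 to -0.41), and stayed between -1.10 and -0.74 with each mouse left out. The adjusted p of Ltbp1 was 0.0817 in edgeR and 0.00259 in DESeq2, and ran from 0.00259 to 0.334 over all alternatives, the highest without control mouse 1. Its control mean of 17.6 CPM lay below those of Ltbp3 (370 CPM) and Ltbp4 (111 CPM), not divided by length. Both were named after their values were seen. The groups overlapped for Ltbp3 and did not for Ltbp4. Ltbp2 (ENSMUSG00000002020; chromosome 12, 84783212 to 84876532, minus strand), a related matrix protein that does not bind latent TGF-beta itself, was counted at 21.8, 17.9 and 24.1 CPM in control and 16.2, 18.2 and 18.6 CPM in aPU.1KO mice. Here control mouse 2 lay within the aPU.1KO range. Its log2 fold change was -0.27 (SE 0.13, 95% interval -0.59 to 0.04, edgeR adjusted p = 0.246).

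Among the receptors, Tgfbr2 (ENSMUSG00000032440; chromosome 9, 116084293 to 116175360, minus strand), the type II receptor, was counted at 90.3, 81.6 and 78.4 CPM in control and 53.7, 74.5 and 64.5 CPM in aPU.1KO mice. The groups did not overlap, but aPU.1KO mouse 2 came close to the lowest control mouse. Its log2 fold change was -0.38 (SE 0.13, 95% interval -0.68 to -0.07), and the adjusted p was 0.133 in edgeR and 0.0756 in DESeq2. Tgfbr1 (ENSMUSG00000007613; chromosome 4, 47353222 to 47414931, plus strand), the type I receptor whose kinase acts on the SMADs, was counted at 60.5, 50.1 and 55.6 CPM in control and 52.5, 54.3 and 49.4 CPM in aPU.1KO mice. Tgfbr3 (ENSMUSG00000029287; chromosome 5, 107106570 to 107289629, minus strand), also called betaglycan, is a co-receptor that presents the ligand and was counted at 148, 163 and 123 CPM in control and 143, 151 and 149 CPM in aPU.1KO mice. Both of these genes had overlapping groups. The log2 fold change was -0.09 for Tgfbr1 (95% interval -0.31 to 0.12, edgeR adjusted p = 0.561) and 0.03 for Tgfbr3 (95% interval -0.24 to 0.30, edgeR adjusted p = 0.888), and the sign for Tgfbr3 turned to -0.080 without control mouse 3.

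The 250 bases before the RefSeq transcription starts of the 3 genes whose groups did not overlap in the lower direction are shown, since these are the windows in which a binding motif of the deleted factor could be looked for. Capitals mark GAGGAA, the core of the PU.1 motif, and CAGACA, a motif of SMAD proteins, which reads TGTCTG where it lies on the other strand. Each sequence is written 5′ to 3′ on the strand of its gene and comes from RefSeq on GRCm38.p6. The window of Tgfb1 is chr7:25686752-25687001 (plus strand), that of Tgfbr2 is chr9:116175364-116175613 (minus strand), and those of the first and second start of Ltbp1 are chr17:75005279-75005528 and chr17:75178531-75178780 (plus strand).
Tgfb1: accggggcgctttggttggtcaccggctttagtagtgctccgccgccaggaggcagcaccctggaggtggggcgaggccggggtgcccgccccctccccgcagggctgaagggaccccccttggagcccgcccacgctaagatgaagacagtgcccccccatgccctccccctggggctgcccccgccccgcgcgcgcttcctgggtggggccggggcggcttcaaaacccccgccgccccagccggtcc
Tgfbr2: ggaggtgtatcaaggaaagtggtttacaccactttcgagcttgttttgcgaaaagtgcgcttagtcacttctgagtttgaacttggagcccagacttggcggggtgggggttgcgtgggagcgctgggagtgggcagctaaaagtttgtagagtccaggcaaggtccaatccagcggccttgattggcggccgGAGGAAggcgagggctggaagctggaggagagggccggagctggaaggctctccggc
Ltbp1, first start: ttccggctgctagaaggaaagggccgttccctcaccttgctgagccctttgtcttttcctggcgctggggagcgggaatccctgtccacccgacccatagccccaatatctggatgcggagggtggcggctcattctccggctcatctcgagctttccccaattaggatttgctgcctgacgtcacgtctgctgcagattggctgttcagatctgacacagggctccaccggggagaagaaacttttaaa
Ltbp1, second start: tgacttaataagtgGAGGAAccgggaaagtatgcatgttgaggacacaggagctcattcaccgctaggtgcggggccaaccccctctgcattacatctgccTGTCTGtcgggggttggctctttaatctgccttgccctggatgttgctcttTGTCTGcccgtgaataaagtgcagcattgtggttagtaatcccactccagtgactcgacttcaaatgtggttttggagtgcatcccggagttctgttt

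The window of Tgfb1 held neither motif and was 75.2% G and C, against a median of 52.4% over all windows. The Tgfbr2 window held GAGGAA 57 to 52 bases before the start. The first Ltbp1 window held neither motif, and the second held GAGGAA 236 to 231 bases before the start and CAGACA on the other strand 149 to 144 and 98 to 93 bases before it. Both strands were searched. Windows of 7 of the 10 genes were used: Tgfb3 and Tgfbr3 had no RefSeq window at hand, and chromosome 18, with Smad7, was left out. Of the 9 windows of these 7 genes, 4 held GAGGAA, 3 held CAGACA and 1, that of Tgfb2, held TATAAA. Over all 32851 RefSeq windows of this length the shares were 23.3%, 17.1% and 12.4%. A match of so few letters is a description of the sequence and not a binding site.

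**Figure D2:**
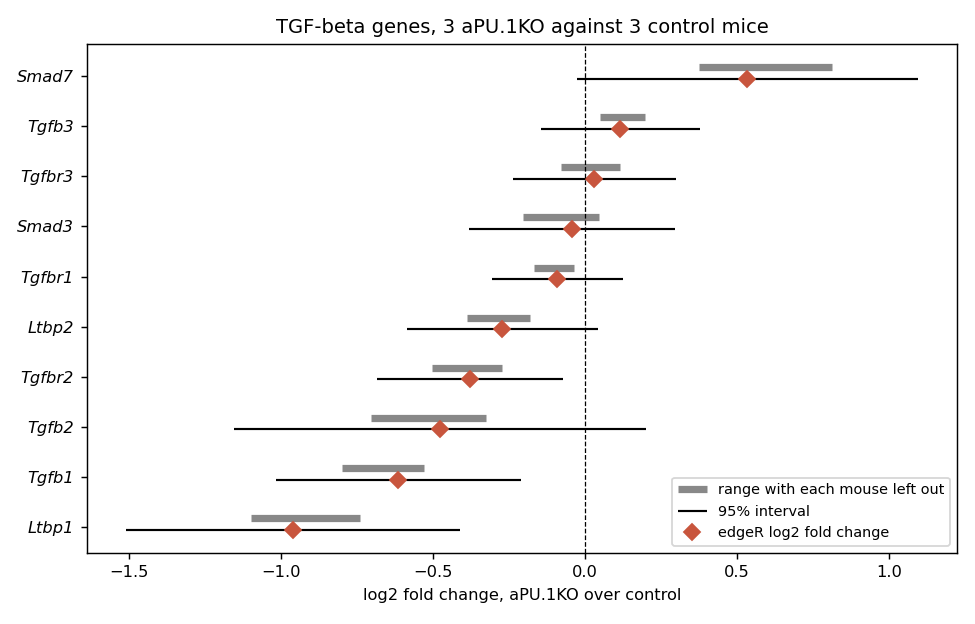
Log2 fold change of the 10 TGF-beta genes, aPU.1KO over control (x axis), from edgeR (red diamonds) with the 95% interval (black line) and the range over fits that each left out 1 mouse (grey bar). The intervals of Ltbp1, Tgfb1 and Tgfbr2 lie below 0, that of Smad7 runs from -0.03 to 1.09, and the grey bars of Tgfbr3 and Smad3 span 0.

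The levels of different genes were compared as CPM per kb of their longest annotated transcript. On that scale Tgfbr3 was the highest of the 10 genes, at 23.7 ± 3.33 CPM per kb (SD, n = 3) in control and 24.2 ± 0.647 CPM per kb in aPU.1KO mice, and its values lay above those of the next gene in every library. In control mice Tgfb1 came next at 13.8 ± 3.09 CPM per kb, followed by Tgfbr2 at 10.3, Tgfbr1 at 9.63, Tgfb3 at 8.62, Smad3 at 7.75 and Smad7 at 6.90 CPM per kb. The ranges of neighbours in that run overlapped, although Tgfb1 exceeded Tgfbr2, and Tgfbr2 exceeded Tgfbr1, within each of the 3 control libraries. The ends of the run were apart: the lowest control value of Tgfb1, 10.3 CPM per kb in control mouse 2, lay above the highest of Tgfb3 (9.23), Smad3 (8.39) and Smad7 (9.44). Ltbp2 at 3.14 and Ltbp1 at 2.64 CPM per kb lay clearly below this run and overlapped with each other, and Tgfb2 was lowest at 0.299 CPM per kb.

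By the means of the aPU.1KO mice, Smad7 came second at 9.97 ± 1.73 CPM per kb, then Tgfb3 at 9.35, Tgfbr1 and Tgfb1 at 9.04 each, Tgfbr2 at 7.94 and Smad3 at 7.52 CPM per kb, again with every neighbour overlapping the next. Within each of the 3 control libraries Tgfb1 lay above Tgfbr1, Tgfbr2 and Tgfb3, by little in control mouse 2. Within the aPU.1KO libraries Tgfb1 still lay above Tgfbr2 in all 3, while Tgfbr1 lay above Tgfb1 in 2. Tgfb3 lay above Tgfb1 in aPU.1KO mice 1 and 3 and below it in aPU.1KO mouse 2. By ranges, Tgfb1 overlapped with Tgfbr1 and Tgfbr2 in the control mice already, and with all 3 genes in the aPU.1KO mice. At the low end Ltbp2 at 2.61 CPM per kb no longer overlapped with Ltbp1 at 1.36 CPM per kb.

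**Figure D3:**
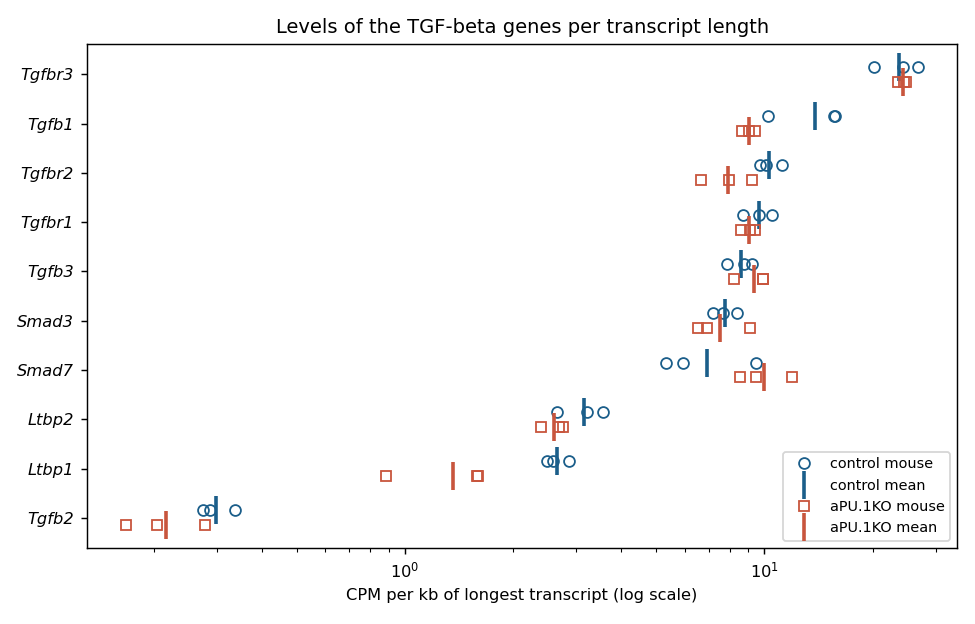
CPM per kb of the longest transcript (x axis, log scale) of the 10 TGF-beta genes in each control (blue circles) and aPU.1KO (red squares) mouse, with group means as upright bars and genes ordered by the control mean. Tgfbr3 is highest and Tgfb2 lowest in both groups, and Ltbp1 moves from 2.64 to 1.36 CPM per kb between the group means.

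Shares within each class of protein were computed per library on the same scale. Tgfb1 made up 63.2%, 51.9% and 65.6% of the ligand transcripts in the control mice and 47.0%, 52.9% and 46.2% in the aPU.1KO mice. Control mouse 2 and aPU.1KO mouse 2 gave nearly the same share, and the difference of -11.6 points between the means had p = 0.2 in a two-sided exact permutation test. Nearly all of the rest was Tgfb3, at 33.2% to 46.7% in control and 46.2% to 52.7% in aPU.1KO mice. Of the pair Ltbp1 and Ltbp2, Ltbp2 made up 52.9%, 50.6% and 59.0% in control and 73.0%, 62.7% and 63.3% in aPU.1KO mice. All aPU.1KO mice had the higher share of Ltbp2, a difference of 12.2 points with an exact permutation p of 0.1 (two-sided), the smallest that 3 against 3 can give. Of the receptors, Tgfbr2 made up 24.3%, 22.2% and 24.6% in control and 16.9%, 21.2% and 19.4% in aPU.1KO mice, a difference of -4.46 points with an exact permutation p of 0.1, while Tgfbr3 made up 51.0% to 58.7% and 57.0% to 59.9% (exact permutation p = 0.2). These shares compare genes within a library and so do not depend on the scaling between libraries.

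The SMAD proteins carry the signal to the nucleus. Smad3 (ENSMUSG00000032402; chromosome 9, 63646767 to 63757994, minus strand), the transcription factor that the active type I receptor phosphorylates, was counted at 39.1, 36.5 and 42.7 CPM in control and 35.2, 33.2 and 46.5 CPM in aPU.1KO mice. The groups overlapped and aPU.1KO mouse 3 was the highest of all. Its log2 fold change was -0.04 (95% interval -0.38 to 0.29, edgeR adjusted p = 0.869), and its sign turned to 0.011 without control mouse 3, to 0.0037 without aPU.1KO mouse 1 and to 0.046 without aPU.1KO mouse 2. Smad7 (ENSMUSG00000025880; chromosome 18, 75367529 to 75395935, plus strand), the inhibitory SMAD that blocks the type I receptor, was counted at 25.4, 40.4 and 22.8 CPM in control and 36.5, 50.9 and 40.5 CPM in aPU.1KO mice. Control mouse 2 lay within the aPU.1KO range, and the other control mice lay below it. The log2 fold change of Smad7 was 0.53 (SE 0.24, 95% interval -0.03 to 1.09, edgeR adjusted p = 0.212). Without control mouse 2 it was 0.81 with an adjusted p of 0.0338 in edgeR, and over all alternatives the adjusted p ran from 0.0338 to 0.542.

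The pattern of each gene over the 6 libraries was compared with that of every other gene tested, by the root mean square difference of log2 CPM values centred on each gene's mean. Nearest to Tgfb1 were Trim47 and Adam17, with differences of 0.054 and 0.063 log2 units. Trim47 was counted at 15.1, 10.5 and 15.1 CPM in control and 8.89, 9.36 and 7.86 CPM in aPU.1KO mice, the same low control mouse 2 included. Nearest to Ltbp1 were Rab27a (0.070) and Rin3 (0.074), and Rin3 was counted at 14.7, 14.8 and 13.4 CPM in control and 5.13, 9.31 and 9.52 CPM in aPU.1KO mice. Nearest to Tgfbr2 were Arhgap18 (0.042) and Arhgap10 (0.052), and nearest to Smad7 were Flvcr2 (0.069) and Med12l (0.072). The remaining genes had Gk (0.050) and Cyb5r4 (0.063) next to Tgfb2, Cbll1 (0.019) and Appl1 (0.023) next to Tgfb3, and Trim34a (0.027) and Parp12 (0.028) next to Tgfbr1. Gpc4 (0.023) and Ccdc107 (0.026) were nearest to Tgfbr3, Slc1a4 (0.035) and Twistnb (0.037) to Smad3, and Rab5c and Exog (0.033 each) to Ltbp2. No gene of the 10 was among the 2 nearest of another: the closest such pair, Tgfb3 and Tgfbr3, differed by 0.124. That is about as much as Tgfb3 and Tgfbr3 varied about their own means (0.126 and 0.124), so a small difference here reflects small variation.

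Proteins that store or release the latent ligand were listed next. Of 17 such genes, 15 were tested, and 10 of these had an unadjusted p under 0.05 in edgeR, all lower, beside 13.7% of all genes lower and 11.9% higher, with a median log2 fold change of -0.72 over the 15. Among them Fbn1 passed an adjusted p under 0.05. Fbn1 encodes fibrillin-1, the microfibril protein to which latent complexes attach, and was counted at 82.2, 73.8 and 50.7 CPM in control and 17.1, 20.3 and 17.6 CPM in aPU.1KO mice. It fell by 1.91 on the log2 scale (SE 0.19, edgeR adjusted p = 0.0268), and the highest aPU.1KO mouse lay far below the lowest control mouse. The call of Fbn1 was lost without control mouse 1 (edgeR adjusted p = 0.0939) and without aPU.1KO mouse 1, 2 or 3 (0.129, 0.0784 and 0.0667), at log2 fold changes of -2.10 to -1.78 over all mice left out in turn. Mmp14, a membrane-bound protease, had a log2 fold change of -1.55 (SE 0.27, edgeR adjusted p = 0.0722). Nrros, which holds latent TGF-beta 1 on the surface of myeloid cells, was counted at 30.4, 12.8 and 28.1 CPM in control and 7.06, 10.7 and 6.82 CPM in aPU.1KO mice, with a log2 fold change of -1.54 (SE 0.35, edgeR adjusted p = 0.0786). Emilin1, a matrix protein that restrains processing of the precursor, had a log2 fold change of -1.14 (SE 0.22, edgeR adjusted p = 0.0759), and Bmp1, a protease that cuts LTBP1 and procollagens, one of -0.52 (SE 0.11, edgeR adjusted p = 0.0764). DESeq2 called 9 of the 15 lower and 0 higher, beside 7.48% and 3.51% of all genes it tested.

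Of 16 other receptors and SMADs of the superfamily, 15 were tested, with a median log2 fold change of -0.03, and an unadjusted p under 0.05 was reached by 2 in the lower and 1 in the higher direction, near the 13.7% and 11.9% of all genes, while DESeq2 called 0, beside its 7.48% lower and 3.51% higher of all genes. The lower genes were Acvr2a, an activin receptor, with a log2 fold change of -0.23 (edgeR adjusted p = 0.141), and Smad1, a SMAD of the bone morphogenetic protein (BMP) branch, with -0.38 (edgeR adjusted p = 0.150). Smad9, another SMAD of that branch, was counted at 0.826, 1.62 and 0.198 CPM in control and 2.39, 2.94 and 2.89 CPM in aPU.1KO mice, a log2 fold change of 1.65 (SE 0.59, edgeR adjusted p = 0.147). The next by p were Acvrl1, a type I receptor of endothelial cells, at -0.27 (edgeR adjusted p = 0.275) and Smad6, an inhibitory SMAD, at 0.36 (edgeR adjusted p = 0.360).

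Of 18 listed inhibitors of the pathway, 17 were tested, with a median log2 fold change of 0.03, and by unadjusted p under 0.05 there were 2 lower and 3 higher genes, beside the same 13.7% and 11.9% of all genes. Nog encodes noggin, an antagonist of BMP ligands, and was counted at 4.65, 6.65 and 3.81 CPM in control and 11.0, 10.1 and 10.3 CPM in aPU.1KO mice. The groups were far apart, at a log2 fold change of 1.06 (SE 0.22), and the adjusted p was 0.0764 in edgeR and 0.00058 in DESeq2. Tgif1, a SMAD co-repressor, was counted at 13.5, 4.03 and 14.0 CPM in control and 2.90, 1.85 and 3.17 CPM in aPU.1KO mice, with a log2 fold change of -2.0 (SE 0.49, edgeR adjusted p = 0.0856). Dcn, whose product decorin binds TGF-beta in the matrix, was counted at 349, 217 and 340 CPM in control and 110, 200 and 173 CPM in aPU.1KO mice, with a log2 fold change of -0.91 (SE 0.27, edgeR adjusted p = 0.105). Ppm1a, a phosphatase of SMADs, had a log2 fold change of 0.23 (edgeR adjusted p = 0.151).

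Genes that TGF-beta is known to induce or repress in other cells were listed as targets, and all 24 were tested, with a median log2 fold change of -0.38. By unadjusted p under 0.05, 10 were lower and 1 was higher, beside 13.7% and 11.9% of all genes, and DESeq2 called 9 lower and 1 higher, beside its 7.48% and 3.51% of all genes, while edgeR called 0 at an adjusted p under 0.05. Fn1, the matrix protein fibronectin, was counted at 183, 137 and 102 CPM in control and 44.4, 36.5 and 50.3 CPM in aPU.1KO mice, with a log2 fold change of -1.69 (SE 0.23, edgeR adjusted p = 0.0627). Col3a1, a fibrillar collagen, was counted at 690, 468 and 600 CPM in control and 297, 406 and 277 CPM in aPU.1KO mice, a log2 fold change of -0.84 (SE 0.20, edgeR adjusted p = 0.0794). Lox, the enzyme that crosslinks collagen, was counted at 140, 109 and 179 CPM in control and 81.0, 60.9 and 88.8 CPM in aPU.1KO mice, a log2 fold change of -0.89 (SE 0.21, edgeR adjusted p = 0.0803). In these 3 matrix genes the groups did not overlap. The matrix protein periostin (Postn) had a log2 fold change of -0.66 and the protease inhibitor Timp1 one of -1.53 (edgeR adjusted p = 0.0786 and 0.0934).

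**Figure D4:**
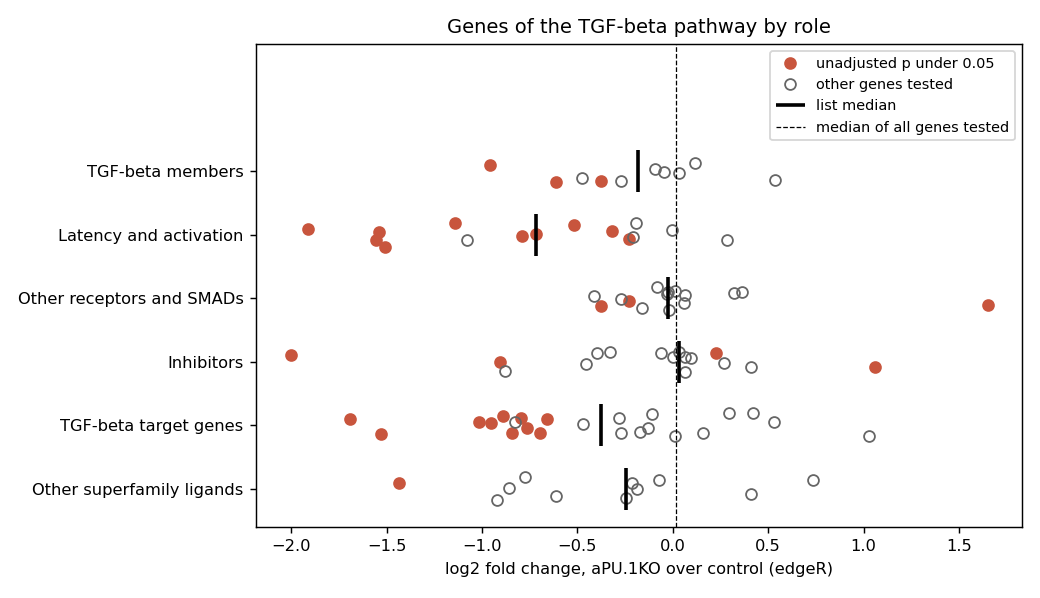
Log2 fold change, aPU.1KO over control, of the tested genes (points, spread vertically at random; 1 inhibitor and 1 target gene not reported here are not drawn) by role in the TGF-beta pathway; filled red points have an unadjusted p under 0.05 in edgeR, black bars are list medians and the dashed line is the median of all genes tested. Of the lists shown, the latency and activation genes have the lowest median, -0.72.

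Markers of other cell types were counted in the same libraries, and by unadjusted p under 0.05 13.7% of all genes were lower and 11.9% higher. All 10 macrophage markers were lower by that p, with a median log2 fold change of -2.09, and their sum was 408 to 1465 CPM in control and 191 to 288 CPM in aPU.1KO mice. Of 8 markers of fat progenitor cells 5 were lower, with sums of 817 to 1270 CPM in control and 544 to 626 CPM in aPU.1KO mice. Most of this sum came from Dpt and Col5a1. They were at 484 and 382 of 1038 CPM in control mouse 1 and at 195 and 285 of 544 CPM in aPU.1KO mouse 1. Of 6 mural cell markers 5 were tested and 3 were lower, with sums of 866 to 1057 and 775 to 865 CPM, while of 8 endothelial markers 1 was lower, near the share of all genes, with sums of 580 to 828 and 347 to 744 CPM. Of 8 adipocyte markers 6 were higher and 1, leptin, lower. Of 6 mesothelial markers 0 passed (sums of 4.64 to 16.8 and 6.58 to 8.54 CPM), likewise of the 3 tested of 6 lymphocyte markers (3.15 to 5.16 and 1.73 to 2.94 CPM). Of 8 hepatocyte genes, the 7 tested were lower (39.0 to 64.0 and 17.2 to 23.2 CPM). Every marker had counts in at least 1 library, and the hepatocyte gene Fgb had 0 in all 3 aPU.1KO mice. The RNA was bulk, so that fewer cells of a type and less RNA per cell cannot be told apart, and the part of these cell types in the values of Ltbp1, Tgfb1, Tgfbr2 and the matrix genes was not tested.

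Set against its control mean, the macrophage marker sum of control mouse 2 was 37.2%, beside 133% and 130% in control mice 1 and 3 and 17.4% to 26.2% in the aPU.1KO mice. Control mouse 2 was also the lowest control mouse in the progenitor marker sum, at 78.5%, beside 99.7% and 122%. It was the highest control mouse in the mural and endothelial sums, at 112% and 117%. Tgfb1 in control mouse 2 was at 74.2% of its control mean and Smad7 at 137%, in both cases on the side of the aPU.1KO mice. Ltbp1 in control mouse 2 was at 97.8%, between the other control mice, and so was Tgfbr2 at 97.7%. In the aPU.1KO mice Ltbp1 was at 33.4%, 60.5% and 60.2%, the progenitor marker sum at 52.2%, 54.9% and 60.1%, and the endothelial sum at 48.9%, 105% and 64.2%. aPU.1KO mouse 1 was the lowest of its group in Ltbp1, in Tgfbr2 and in the progenitor, mural and endothelial sums.

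**Figure D5:**
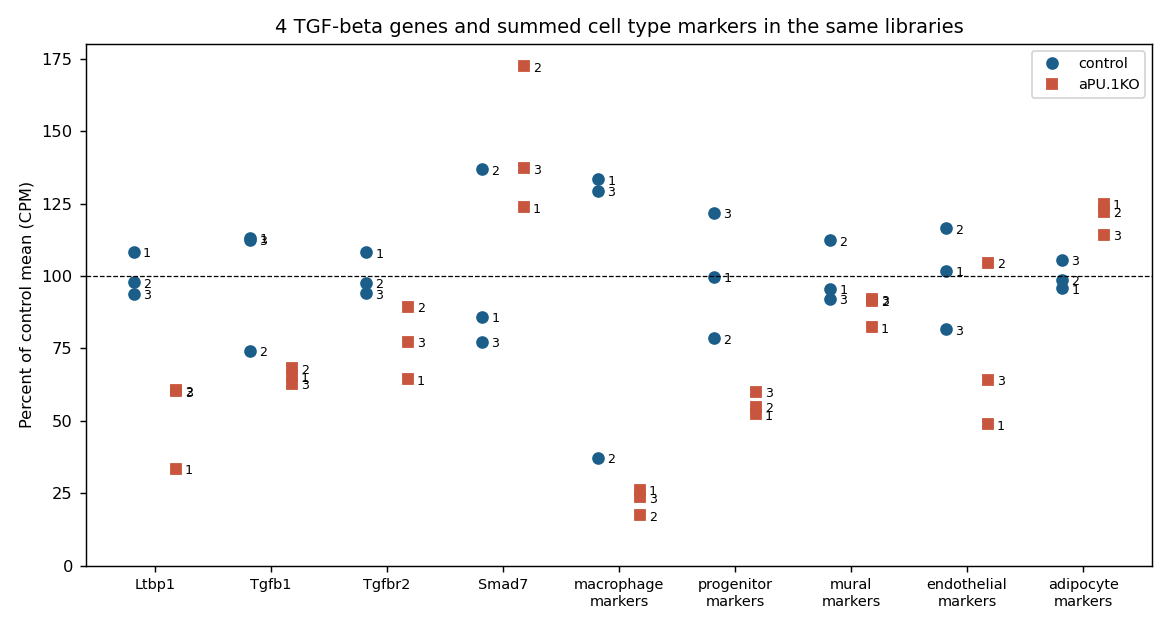
Ltbp1, Tgfb1, Tgfbr2, Smad7 and summed markers of 5 cell types in each library as a percent of the control mean (y axis, from 0; dashed line at 100), with control mice as blue circles and aPU.1KO mice as red squares, numbered by mouse. Control mouse 2 is at 37.2% in the macrophage markers and at 97.8% in Ltbp1.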

How the data were processed

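RNA of the epididymal adipocyte fraction of 3 control and 3 aPU.1KO mice was sequenced. The authors quantified reads with Salmon and deposited expected counts (estimated counts) per Ensembl gene, as whole numbers without normalization, and these entered the tests as they were. GRCm38 is the build in the submitters' processing notes. The Salmon version and the annotation release are not given in the sources used here. Of 35122 genes, 35031 matched a symbol in GENCODE M21, and the others held 0.0367% of counts. The age of 10 to 11 months is from the labels, and the paper gives an older one. Mice are numbered in accession order, which pairs no samples. No libraries of a group were duplicates. A Salmon count of Tgfb1 could include reads of other genes, since 4.33% of its 31-base words occur in them; this was 1.62% for Tgfbr2, 0.236% for Tgfb2 and 0 for the other 7 genes. Exons of Tgfb2, Tgfb3 and Ltbp2 overlap those of other annotated genes on the opposite strand by 124 to 764 bases, and those of Tgfbr3 one on its own strand by 297 bases. Reads of the stretches on opposite strands cannot be told apart where the counting ignored strand, which is not given. Strand cannot separate reads of the stretch in Tgfbr3. None of these overlapping genes is among the 35122 genes counted.

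Genes passing filterByExpr were tested with edgeR 4.0.16 in R 4.3.3 (TMM factors, glmQLFit defaults, glmQLFTest, Benjamini-Hochberg adjustment over 13925 genes); p-values printed as edgeR's are from this test. The common biological coefficient of variation was 0.194. The pipeline was tested on simulated data. Alternatives were DESeq2 1.42.0 (the tool in the study's methods), limma-voom (limma 3.58.1), RLE and upper quartile factors, other filters, robust dispersion, legacy = FALSE, control library 1 thinned to the median depth, and each mouse left out. Shares were compared with exact permutation tests (scipy 1.17.1). Log2 CPM values for patterns used a prior count of 2. Named were the 10 genes, Spi1, the 5 genes of lowest p in each pathway list and the 2 genes of nearest pattern to each of the 10. The 10 genes and all lists were chosen with earlier results of these data known. Figures used matplotlib 3.10.9. Results for some genes that this rule names or that the lists hold are not reported here; they stay in the counts and medians of their lists.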

Additional observations from a re-analysis of the deposited data

How the results depend on the processing

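With 3 mice per group single mice decided what was called. Genes called over the whole table at an adjusted p under 0.05 numbered 33 in edgeR, 5 with at least 10 counts required in every library, 146 with no filter and 1833 in DESeq2, and 0 to 1193 with each mouse left out: 0 without control mouse 1 (1718 at an unadjusted p under 0.05), 1193 without control mouse 2, and 5 to 8 without any one of the others. Of the 10 TGF-beta genes 0 were called in edgeR (3 at an unadjusted p under 0.05), 2 in DESeq2, 0 in limma-voom and 0 to 2 with each mouse left out, the 2 without control mouse 2. At an unadjusted p under 0.05 the count of 3 ran from 2 to 5 with each mouse left out, with 5 without control mouse 2 and 2, Tgfb1 and Ltbp1, without aPU.1KO mouse 3 or control mouse 1. The share of all genes under that p was 25.7% with all mice, 26.1% without control mouse 2, 27.4% without aPU.1KO mouse 3 and 12.3% without control mouse 1. The sign of 2 genes turned when a mouse was left out: the log2 fold change ran from -0.080 to 0.11 for Tgfbr3 and from -0.20 to 0.046 for Smad3. The other 8 genes kept their direction under every alternative, and of the values recomputed for the 10 genes 142 kept direction and side of the threshold, 4 crossed it and 4 turned in sign. The median over the 10 genes stayed between -0.28 and -0.14, and the differences in shares kept their sign. The cause of these changes was not tested, beyond the fewer samples in each fit that left out a mouse. No paired analysis was made: the paper describes the controls as littermates, but the mouse numbers in the labels do not say which mice share a litter. Tgfb2 had the fewest counts of the 10 genes, 19 to 125 per library. With control library 1 thinned its log2 fold change was -0.46, against -0.48.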

Other observations

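The other ligands of the superfamily, the activins, BMPs and growth differentiation factors (GDFs), were not part of the comparison above. Of 16 listed, 11 were tested, with a median log2 fold change of -0.24. At an unadjusted p under 0.05, 1 was lower and 0 were higher, which is no more than the 13.7% and 11.9% of all genes tested, and none was called by edgeR or, among the 11, by DESeq2. The lower one was Gdf15, a stress-induced hormone, counted at 7.12, 1.88 and 7.65 CPM in control and 2.49, 2.71 and 0.995 CPM in aPU.1KO mice, where control mouse 2 again lay within the aPU.1KO range (log2 fold change -1.44, SE 0.59, edgeR adjusted p = 0.186). Next by p were Bmp5 (-0.78), Gdf11 (-0.86), Bmp4 (0.73) and Gdf10 (-0.61), with edgeR adjusted p of 0.232, 0.238, 0.253 and 0.298. Gdf3, a ligand of the activin receptors, named after its values were seen, had too few counts for the edgeR test and was counted at 4.41, 0.394 and 3.49 CPM in control and at 0.356, 0 and 0.332 CPM in aPU.1KO mice, with an adjusted p of 0.00760 in DESeq2.

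The other LTBP genes were in the latency list. Ltbp3, which binds latent TGF-beta as LTBP1 does, was at 343, 342 and 426 CPM in control and 348, 290 and 324 CPM in aPU.1KO mice (log2 fold change -0.21, edgeR adjusted p = 0.328), and for Ltbp4 the groups did not overlap (log2 fold change -0.72, edgeR adjusted p = 0.137). The integrin subunit Itgb5, part of a receptor for the latent complex, overlapped between the groups, with a log2 fold change of -0.005 (edgeR adjusted p = 0.978). These genes were named after their values were seen.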
